A study of Mus musculus with 22 samples.

Results

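Regions of open chromatin that were called in retinal endothelial cells of gTKO pups and had no counterpart in control pups are described here, limited to those at least 300 bp wide. They were taken from the authors' 2 lists of ATAC-seq peaks, 1 per genotype. A gTKO peak on chromosomes 1 to 19 or X was kept if it was 300 bp or wider and shared no base with any control peak. This gave 460 wide gTKO-only regions out of 27474 gTKO peaks of that width, or 1.67%, and out of 50178 peaks in the whole gTKO list. Width and the absence of a control peak chose these regions, so both are given below as a description.

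The study sorted endothelial cells from the retinas of C57BL/6 pups at postnatal day 6, although the cell type label also calls them adult. Control pups were S1pr3-/- S1pr1flox/flox S1pr2flox/flox, and gTKO pups had the same alleles together with Rosa26-CreERT2. Both genotypes therefore lacked S1pr3, and both received 100 µg tamoxifen from day 1 to day 3. The Cre transgene was present in gTKO pups only, so its own presence and the loss of S1pr1 and S1pr2 cannot be told apart. Rosa26 is a broadly expressed locus, so the recombinase was not designed to act in endothelial cells alone. Each library came from 5000 to 8000 sorted cells of 4 to 6 pooled pups, with 3 libraries per genotype. The peak lists do not separate the libraries, so nothing below carries an error between replicates and no test between genotypes was possible. The control list held 58311 peaks.

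The products of S1pr1, S1pr2 and S1pr3 are cell surface receptors that couple to G proteins and bind sphingosine 1-phosphate, a lipid carried in blood that acts on the endothelium. In growing vessels, S1pr1 is known for restraining sprouting and for stabilising junctions between endothelial cells. ATAC-seq reads come from DNA that the Tn5 transposase can reach, such as active promoters and enhancers, and a peak is a stretch where such reads pile up above a caller's threshold. Whether a peak is called depends on accessibility and also on depth and threshold. The lists hold no score, and the read depth behind them is unknown. Genome sequence and gene annotation of the files' build, mm9, were not used, so regions are named by mm9 position alone and neither genes nor sequences are given. For the same reason the labelled cell type was not checked against its marker genes.

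The wide gTKO-only regions were narrow for their class. Their median width was 348 bp (quartiles 319 and 391 bp), and 357 of the 460 were under 400 bp. Another 87 measured 400 to 499 bp, 14 measured 500 to 599 bp, and 2 were 600 bp or wider. Together they covered 168 kb, which was 0.853% of the sequence in gTKO peaks of at least 300 bp. No region exceeded 672 bp, whereas 11668 gTKO peaks that overlapped a control peak did.

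The share of gTKO peaks with no control peak fell with every step in width up to 649 bp. Of gTKO peaks 300 to 349 bp wide, 7.03% had no control peak (95% interval 6.20 to 7.94%, 242 of 3442). Between 400 and 449 bp the share was 2.47% (1.87 to 3.20%), and between 500 and 549 bp it was 0.503% (0.230 to 0.953%). Among 10970 peaks of 700 bp or more it was 0, with an exact upper limit of 0.0336%. All intervals are exact (Clopper-Pearson) and reflect counting error alone. No step in the share was seen at the 300 bp limit itself. Just outside it, at 290 to 299 bp, 71 of 806 peaks (8.81%) had no control peak, and just inside, at 300 to 309 bp, 59 of 746 (7.91%).

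**Figure D1:**
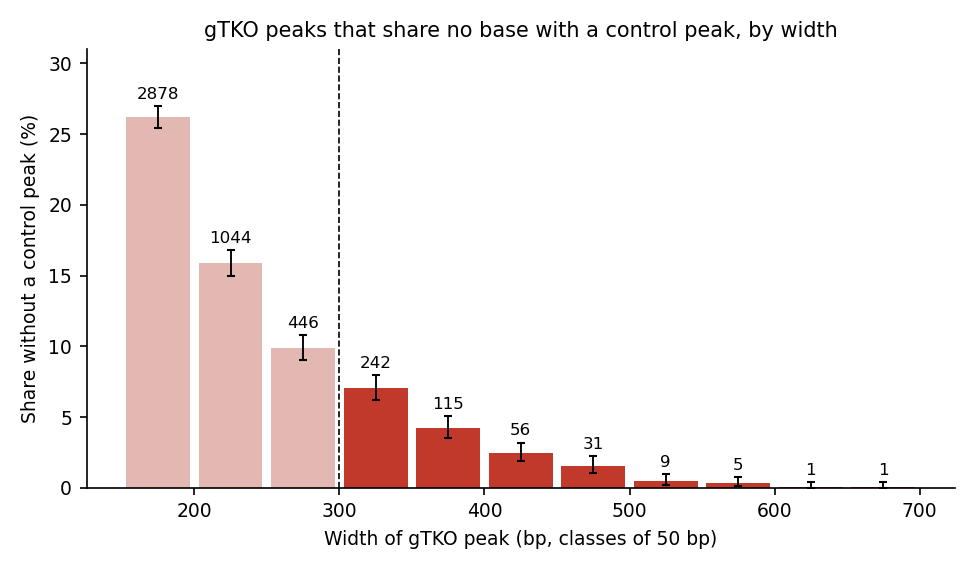
Share of gTKO peaks (vertical axis, %) that shared no base with a control peak, by peak width in classes of 50 bp (horizontal axis). Bars right of the dashed line at 300 bp are the regions described here, numbers above bars count regions, and error bars are exact 95% intervals; the share was 7.03% at 300 to 349 bp and 0.503% at 500 to 549 bp.

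The same rule applied to the control list gave a larger class. Of 32825 control peaks of at least 300 bp, 2634 (8.02%) shared no base with a gTKO peak, which is 5.73 times as many regions. Control-only regions of that width were also wider, with a median of 382 bp and a maximum of 3231 bp. They lay closer to the other list as well, at a median of 3.40 kb (quartiles 0.848 and 11.5 kb) from the nearest gTKO peak. The wide gTKO-only regions lay at a median of 7.44 kb (quartiles 1.67 and 25.4 kb) from the nearest control peak. The control list holds more peaks, which by itself shortens the distance from a gTKO-only region.

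Few peaks lay right at the edge of the overlap rule. Control peaks overlapped 15346 gTKO peaks of 300 to 672 bp and covered 12449 of them over at least 90% of their length. They covered 264 over at most 50%, and 3 of these over at most 10%. On the other side of the rule, 3 of the 460 gTKO-only regions lay within 20 bp of a control peak. Few regions thus lay within a few bases of the other class.

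Most wide gTKO-only regions stood well apart from the control list, and a minority lay beside a control peak. A control peak lay within 1 kb of 86 regions (18.7%, 95% interval 15.2 to 22.6%). For 37.8% of the regions the nearest control peak was more than 1 and up to 10 kb away, for 30.0% (138 regions) more than 10 and up to 50 kb, and for 13.5% (62 regions) more than 50 kb. Width hardly differed between these classes, with medians of 330, 348, 352 and 348 bp. Distance from the control list was therefore not accompanied by larger width.

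The 3 regions nearest to a control peak show regions that lay side by side. At chr8:11195294-11195752 (459 bp), a control-only peak of 158 bp began 15 bp further on. At chr13:12929956-12930272 (317 bp), a control-only peak of 178 bp began after 16 bp. At chr15:85897340-85897688 (349 bp), the control peak 16 bp away was 703 bp wide and overlapped another gTKO peak, of 182 bp. Of the 49 regions within 500 bp of a control peak, 38 had a neighbour that was itself called in both lists and 11 had a control-only neighbour. In 14 of the 49 the control neighbour was at least as wide as the gTKO-only region. In 24 of the 49 the control neighbour was both shared and narrower than the gTKO-only region.

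The 3 farthest regions lay in stretches with few or no other peaks. The region at chr1:117408443-117408743 (301 bp) was 983 kb from the nearest control peak and 1608 kb from the next gTKO peak. At chr14:97083193-97083552 (360 bp) both distances were 555 kb. At chrX:125950225-125950567 (343 bp), the nearest control peak was 333 kb away, but a further gTKO-only peak of 180 bp lay at 159 bp. In all, 42 regions on 16 chromosomes had no other peak of either list within 50 kb, which is 9.13% (95% interval 6.66 to 12.1%). Among gTKO peaks of equal width that overlapped a control peak, 4.19% stood alone in this way, leaving out the control peak they overlapped. The rule chose the regions for having no control peak, so this difference is in part set by it.

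The 10 widest regions fell into the same types. The widest, chr18:39400865-39401536 (672 bp), lay 522 bp from a control peak of 160 bp, and that control peak overlapped a gTKO peak of 157 bp. Similarly, chr11:71575238-71575789 (552 bp) was 425 bp from a shared control peak of 344 bp. These were the only 2 of the 10 with a control peak within 1 kb.

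The other 8 had no control peak within 2.8 kb. The region at chr3:131354244-131354824 (581 bp) had no peak of either list within 50 kb, and the nearest, a shared peak, was 54.9 kb away in both lists. At chr13:79137832-79138371 (540 bp) the only peak within 50 kb in each list was a shared one 20.9 kb away, and at chr11:46749663-46750220 (558 bp) it was a shared one 14.3 kb away. The region at chr14:41808481-41809067 (587 bp) had 13 peaks of each list within 50 kb, the nearest of them a shared peak at 15.9 kb. In these 4 regions the nearest peak of each list was thus one that both genotypes shared.

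In 3 more of the widest regions the nearest gTKO peak was itself gTKO-only. At chr10:107975432-107975975 (544 bp) a gTKO-only peak of 161 bp lay 486 bp away, while the nearest control peak was 47.8 kb away. At chr15:91305106-91305644 (539 bp) a gTKO-only peak of 150 bp lay at 11.4 kb and the nearest control peak at 97.2 kb. At chr8:120946409-120947005 (597 bp) a gTKO-only peak of 164 bp lay at 10.7 kb, and a control-only peak of 297 bp at 15.6 kb. The last of the 10, chr7:46552234-46552871 (638 bp), lay in a crowded stretch that is described further on, with 45 other gTKO peaks and 31 control peaks within 50 kb. The widest regions therefore had no setting in common.

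**Figure D2:**
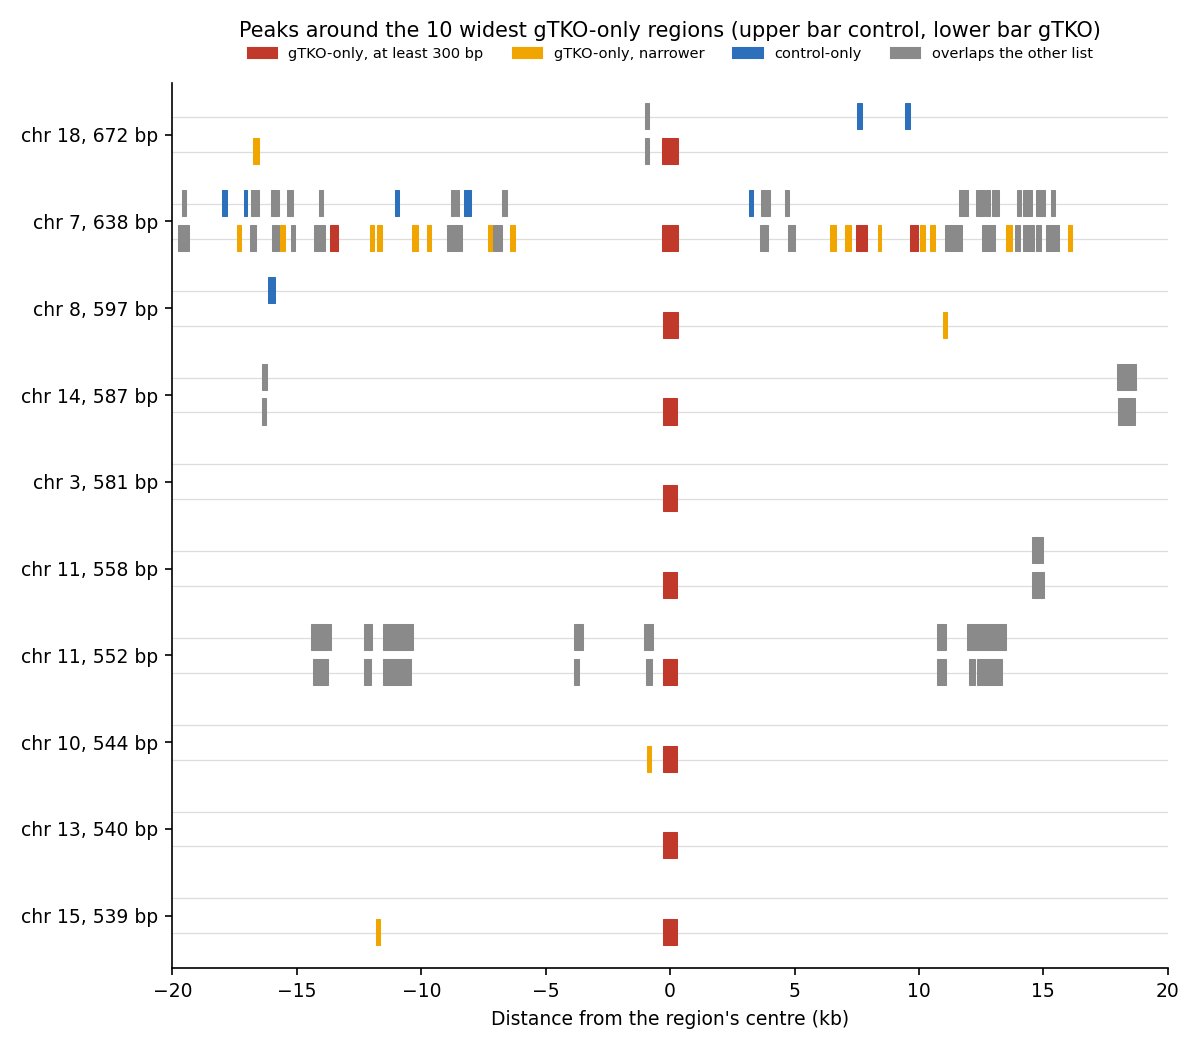
Peaks of the control list (upper bar of each row) and the gTKO list (lower bar) within 20 kb of the 10 widest gTKO-only regions (red, at 0), with the horizontal axis in kb from the region's centre. Grey peaks overlap the other list; the row for chromosome 3 holds no other peak, whereas that for chromosome 7 holds peaks of every class.

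Whether the surroundings of wide gTKO-only regions were unusual was examined against gTKO peaks of equal width that overlapped a control peak. These comparison peaks numbered 8602, and each was weighted so that their widths had exactly the distribution of the 460 regions. Control peaks that overlapped a comparison peak were left out when its neighbours were counted. Wide gTKO-only regions lay in sparser surroundings in both lists. The median distance to the next gTKO peak was 5.71 kb (quartiles 1.02 and 17.6 kb), against 2.78 kb (0.492 and 11.4 kb) for comparison peaks. Another gTKO peak lay within 10 kb of 290 regions, which is 63.0% (95% interval 58.5 to 67.5%) against 72.9%. This measure uses the gTKO list alone, but most gTKO peaks overlap a control peak, so it is not free of the rule. The 4368 gTKO-only regions under 300 bp lay at similar distances, with medians of 5.30 kb to the next gTKO peak and 5.83 kb to the nearest control peak. A control peak lay within 10 kb of 260 regions, which is 56.5% (51.9 to 61.1%). A control peak other than the overlapped one lay within 10 kb of 74.0% of comparison peaks. The rule chose the regions for having no control peak, so this last difference is in part set by it.

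Control peaks were also less frequent at a distance from the regions, a contrast that the rule in part sets as well. In bins of 1 kb between 2 and 20 kb from the centre, on average 8.12% of wide gTKO-only regions had a control peak in a bin, against 12.8% of comparison peaks, and the share was lower in 36 of 36 bins. For gTKO peaks the averages were 8.37% and 10.6%, and the share was lower in 35 of 36 bins. Bins along the same regions are not independent.

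**Figure D3:**
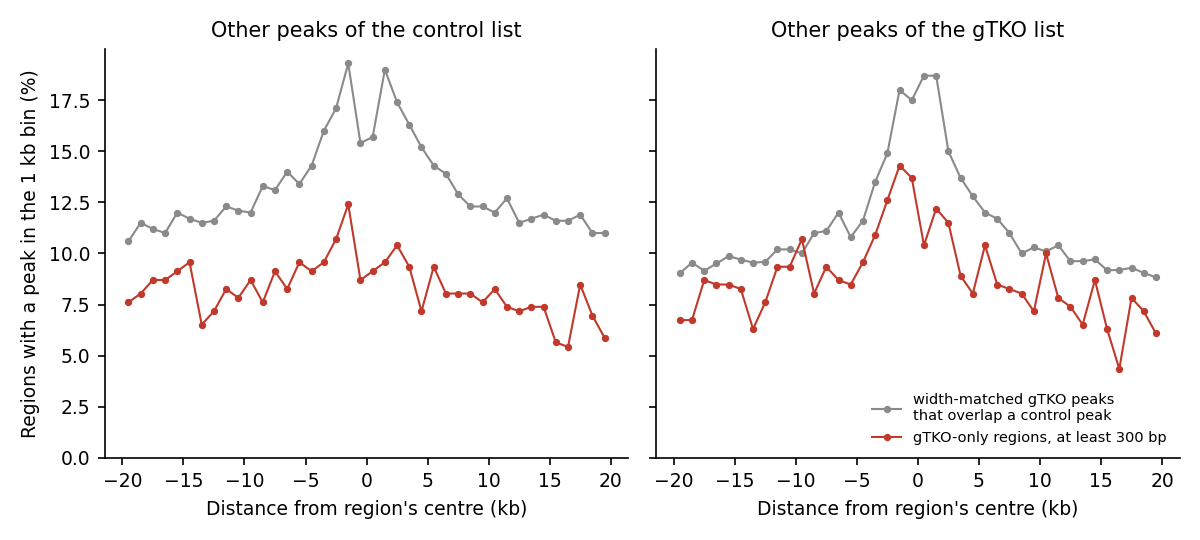
Share of regions (vertical axis, %) with another peak of the control list (left) or of the gTKO list (right) in each 1 kb bin, by distance in kb from the region's centre (horizontal axis). Wide gTKO-only regions are in red and width-matched gTKO peaks that overlap a control peak in grey, and peaks that overlap the region itself are left out; between 2 and 20 kb the red points average 8.12% on the left, against 12.8% in grey.

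Very close gTKO neighbours were also less frequent. A gTKO peak lay within 100 bp of 19 regions, which is 4.13% (95% interval 2.50 to 6.38%) against 10.6% of comparison peaks. Within 1 kb the shares were 24.8% (20.9 to 29.0%) and 34.3%. Comparison peaks can be neighbours that overlap the same control peak, which the rule excludes for the regions. These contrasts are therefore in part set by the rule. In their wider surroundings, 67 of the 460 regions (14.6%, 11.5 to 18.1%) had other gTKO peaks within 50 kb and were wider than each. For comparison peaks the share was 10.0%, and peaks with no such neighbour counted as not the widest. The regions had fewer such neighbours, with a median of 4 against 6, and fewer neighbours make it easier to be the widest.

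The share of gTKO-only regions followed local density over most of its range. Among gTKO peaks from 300 to under 400 bp wide with no other gTKO peak within 50 kb, 40 of 406 had no control peak (9.85%, 95% interval 7.13 to 13.2%). The share was 7.19% (6.14 to 8.35%) with 1 to 4 gTKO neighbours, 5.04% (4.09 to 6.13%) with 5 to 9 and 3.30% (45 of 1362) with 10 to 19. With 20 or more it was 6.41% (3.96 to 9.73%, 20 of 312), which was not lower than in the class before. Without the 1 Mb windows that held 3 or more regions, it was 2.11% (0.688 to 4.85%, 5 of 237). Those windows were picked by their number of regions, so leaving them out lowers the share by construction. Counted by control peaks within 50 kb, the share fell from 12.8% (9.59 to 16.5%) with none to 2.89% (1.63 to 4.72%) with 20 or more. Since the rule asks for the absence of a control peak, this fall with control density is in part set by the rule. The counts of gTKO neighbours do not use the control list. Only 9.74% of all gTKO peaks had no control peak, however, so those counts are not free of the rule either.

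The neighbours of wide gTKO-only regions were themselves often gTKO-only. The nearest other gTKO peak was gTKO-only for 114 regions, or 24.8% (95% interval 20.9 to 29.0%), against 8.82% of comparison peaks. Over all gTKO peaks of any width, 9.74% had no control peak. Within 50 kb, 24.6% of the other gTKO peaks around the regions were gTKO-only, against 8.71% around comparison peaks. The share depended on distance from the control list. It was 9.30% (4.10 to 17.5%) for the 86 regions within 1 kb of a control peak and 40.3% (28.1 to 53.6%) for the 62 regions more than 50 kb from one. Far from control peaks a neighbouring gTKO peak is itself more likely to lack a partner, so this last rise is in part set by the rule. The same holds for the contrasts with comparison peaks. No further control peak lay within 50 kb of 13.5% of the regions, against 5.53% of comparison peaks.

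Control-only neighbours were less frequent than around comparison peaks. The control-only share over all control peaks of any width was not worked out, so which group departed from it is unknown. The nearest control peak was control-only for 69 regions, or 15.0% (95% interval 11.9 to 18.6%), and the nearest control peak other than the overlapped one was so for 25.4% of comparison peaks. The share was 17.4% (10.1 to 27.1%) for the regions within 1 kb of a control peak, 10.9% (6.70 to 16.5%) at more than 1 and up to 10 kb, and 13.8% (8.50 to 20.7%) at more than 10 and up to 50 kb. For the 62 regions more than 50 kb from a control peak it was 25.8% (15.5 to 38.5%). Comparison peaks were not divided by distance, so whether the difference held at each distance is unknown. Within 50 kb the pooled shares were 23.3% and 28.1%. For comparison peaks the overlapped control peak, shared by definition, was left out, which raises the control-only share around them. The lower control-only share around the regions is therefore in part set by the rule, as is the higher gTKO-only share. Most neighbours were shared peaks. For 299 regions (65.0%), the nearest neighbours in both lists were shared peaks. The nearest control peak measured 336 bp at the median (204 to 693 bp between quartiles) around the regions and 357 bp (211 to 694 bp) around comparison peaks.

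Consecutive peaks of the gTKO list that were all gTKO-only formed 441 runs with at least 1 wide region. Of these runs, 292 consisted of the wide region alone, 104 of 2 peaks and 45 of 3 or more, and 9 runs had 5 or more. Thus 63.5% of the wide regions had no gTKO-only peak next to them in the gTKO list. Of the 2 longest runs, one was spread over 7317 kb of chromosome 7 with 4 control peaks in it. The other, chr13:12982176-13013427, held 10 consecutive gTKO-only peaks in 31.3 kb with no control peak between them, and only the last of the 10 was at least 300 bp wide. At chr4:3166498-3181246, 8 consecutive gTKO-only peaks in 14.7 kb included 2 wide ones, again with no control peak between them. At chr7:46558972-46563212, 7 in 4.24 kb included 2 wide ones.

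The share of wide gTKO-only regions differed between chromosomes. It was highest on chromosome 14 (3.04%, 95% interval 2.09 to 4.27%, 32 regions), chromosome 13 (2.68%, 1.83 to 3.78%, 31 regions) and chromosome 1 (2.66%, 1.95 to 3.55%, 45 regions). These 3 intervals lay above the overall share of 1.67%. The lowest shares were on chromosome X (0.974%, 0.358 to 2.11%, 6 regions), chromosome 9 (0.989%, 0.542 to 1.65%, 14 regions) and chromosome 3 (1.05%, 0.575 to 1.76%, 14 regions). Among the 20 chromosomes, the intervals of chromosomes 9 and 11 lay below the overall share and those of the other 15 included it.

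The order was similar once widths were taken into account. With an even share in each width class of 50 bp, chromosome 14 would have held 18.5 regions, chromosome 13 19.7 and chromosome 1 30.6, so the counts found were 1.73, 1.57 and 1.47 times as high. On chromosome X the ratio was 0.551. Without the 1 Mb windows that held 3 or more regions, the share was 2.49% on chromosome 14 and 2.51% on chromosome 1. Chromosome 13 then had 2.13%, after chromosome 8 with 2.14%, and chromosome 15 had 2.08%. Those windows were picked by their number of regions, so leaving them out lowers the shares of their chromosomes by construction. Narrower gTKO-only regions, which the width rule left out, ranked the chromosomes in a related order, with a Spearman correlation of 0.55 over 20 chromosomes. Chromosomes 14, 1 and 13 led there too, with 23.7%, 23.1% and 23.0% of gTKO peaks under 300 bp. The share of control-only regions of at least 300 bp was not ordered in this way, with a correlation of 0.04 over the same chromosomes. Both correlations are descriptions of points that share the same 2 lists.

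**Figure D4:**
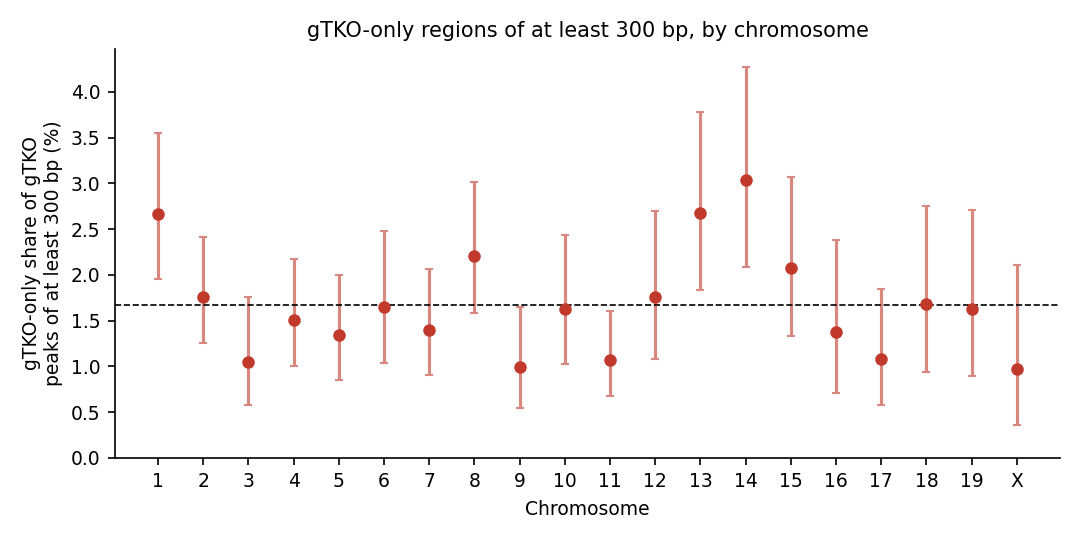
Share of gTKO peaks of at least 300 bp that had no control peak (vertical axis, %), by chromosome (horizontal axis), with exact 95% intervals. The dashed line is the overall share of 1.67%; chromosome 14 is highest at 3.04% and chromosome X lowest at 0.974%.

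Within chromosomes, the regions were scattered, with a few groups. They fell into 384 windows of 1 Mb out of 2137 that held a gTKO peak of at least 300 bp. A single region was found in 326 windows, 2 regions in 45 and 3 or more in 13. The 13 windows held 44 regions, 9.57% of the total. Another wide gTKO-only region lay within 10 kb of 34 regions (7.39%, 95% interval 5.17 to 10.2%), and such a region lay within 10 kb of 1.59% of comparison peaks. With the 13 windows left out for both, these shares were 3.37% (1.85 to 5.58%, 14 of 416) and 1.20%. The windows were picked out by their number of regions, so leaving them out lowers both shares by construction. Both regions of a pair are counted, so the counts are not independent and the intervals are too narrow. Far from control peaks a gTKO peak is more likely to lack a partner, so these contrasts are in part set by the rule.

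Neighbouring wide regions formed 18 pairs within 10 kb, and in 14 pairs no control peak lay between them. In 10 of the 18 no peak of either list lay between them. The closest pair, chr13:96220669-96221068 (400 bp) and chr13:96221358-96221827 (470 bp), was 289 bp apart. The next, chr1:58912910-58913254 (345 bp) and chr1:58913687-58914016 (330 bp), was 432 bp apart, with the nearest control peak 2669 bp from the second. On chromosome 19, regions of 352 and 313 bp were 535 bp apart at chr19:21531087-21531438 and chr19:21531974-21532286.

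The largest number in 1 window was 5, at 46 to 47 Mb on chromosome 7, where wide gTKO-only regions made up 23.8% of 21 gTKO peaks of at least 300 bp. They lay in 37.6 kb, chr7:46524945-46562497, and measured 309 to 638 bp. This stretch held 30 gTKO peaks covering 8782 bp, of which 19 were gTKO-only, and 18 control peaks covering 4059 bp, of which 6 were control-only. Both lists thus held peaks of their own here, more of them in the gTKO list. The widest 3 regions were chr7:46552234-46552871, chr7:46560005-46560482 (478 bp) and chr7:46524945-46525296 (352 bp). The second had a gTKO-only neighbour at 183 bp, and the last a control-only neighbour at 180 bp.

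On chromosome 14 between 44 and 45 Mb, 4 of 6 gTKO peaks of at least 300 bp were gTKO-only (66.7%). They lay in 49.7 kb, chr14:44028542-44078211, with widths of 347 to 381 bp. The stretch held 19 gTKO peaks, 13 of them gTKO-only, and 9 control peaks, 2 of them control-only. Covered sequence amounted to 4820 bp in the gTKO list and 2057 bp in the control list. The widest in the window were chr14:44028542-44028922 (381 bp), chr14:44037707-44038081 (375 bp) and chr14:44075364-44075721 (358 bp), each between 2.20 and 2.69 kb from a control peak. Another wide region, chr14:43996535-43996908 (374 bp), lay just before 44 Mb and so outside the window.

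A second window on chromosome 7, between 81 and 82 Mb, was of another kind. It held 4 regions among only 8 gTKO peaks of at least 300 bp (50.0%), spread over 138 kb with few other peaks. The region at chr7:81669395-81669825 (431 bp) had a second wide gTKO-only region 2.75 kb away. The others, chr7:81792138-81792483 (346 bp) and chr7:81807376-81807703 (328 bp), lay 14.9 kb from each other and 91.5 and 107 kb from the nearest control peak.

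On chromosome 13 between 13 and 14 Mb, 4 of 12 gTKO peaks of at least 300 bp were gTKO-only (33.3%). Of these, 3 lay within 11.1 kb of one another, and the region at chr13:13644244-13644567 (324 bp) lay far from them with a shared peak 12.3 kb away. Windows have fixed edges, and wide regions at chr13:12929956-12930272 (317 bp) and chr13:12973201-12973561 (361 bp) lay just before 13 Mb, outside the window. The region at chr13:13023777-13024190 (414 bp) had a control-only peak of 377 bp at only 82 bp. The one at chr13:13020691-13021010 (320 bp) had 22 other gTKO peaks but 10 control peaks within 50 kb. Counts of neighbours were thus unequal between the lists, as in the crowded windows on chromosomes 7 and 14.

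On chromosome 1 between 58 and 59 Mb, the pair 432 bp apart and the region at chr1:58046055-58046417 (363 bp) made up 3 of 19 gTKO peaks of at least 300 bp (15.8%). A further window on chromosome 13, between 96 and 97 Mb, held 3 regions in 24.3 kb, chr13:96197506-96221827. All 4 gTKO peaks in that stretch were gTKO-only, and no control peak lay in it. This last stretch was singled out after its values were seen. By contrast, the 3 regions on chromosome 8 between 74 and 75 Mb lay in 50.7 kb with 45 gTKO and 39 control peaks, most of them shared, and made up 3.70% of the wide gTKO peaks of their window.

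**Figure D5:**
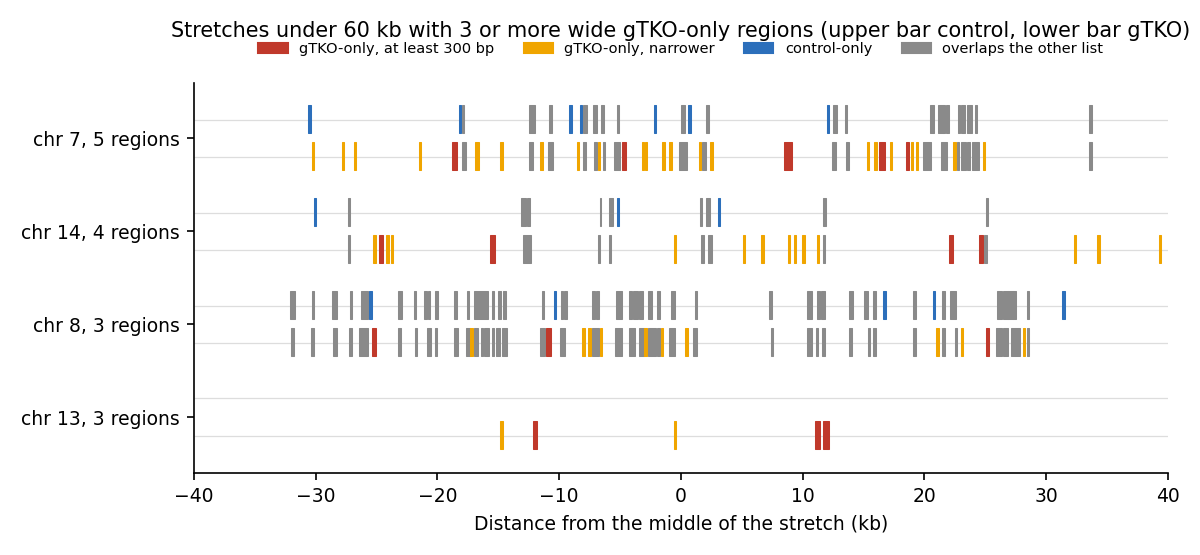
Peaks of the control list (upper bar of each row) and the gTKO list (lower bar) in the 4 windows whose wide gTKO-only regions (red) lay closest together, with the horizontal axis in kb from the middle of the stretch. Orange peaks are narrower gTKO-only peaks, blue ones control-only and grey ones overlap the other list; the row for chromosome 13 holds no control peak, and that for chromosome 8 is mostly grey.

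Crowded surroundings of this kind were found for 25 regions that had 20 or more other gTKO peaks within 50 kb. Of these, 19 lay in the 13 windows with 3 or more regions. Among their gTKO neighbours 42.6% were gTKO-only, against 10.1% around the 1121 gTKO peaks of at least 300 bp that overlapped a control peak in equally crowded places. Among their control neighbours 28.0% were control-only, against 28.5% around the same 1121 peaks, with the control peaks they overlapped left out. One-list peaks were thus more frequent around these regions in the gTKO list, and about as frequent in the control list. The regions count among the gTKO-only neighbours of one another, and most lie in windows picked by their number of regions. The 42.6% is therefore in part raised by the choice of regions. The regions also share neighbours, so these percentages rest on few places, 11 windows on 7 chromosomes.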

How the data were processed

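ATAC-seq peak positions were analysed as deposited by the authors, in 1 list for the 3 control libraries and 1 for the 3 gTKO libraries. Each list has 3 columns (sequence, start, end) and no score, and the unit is base positions. The submitters' processing notes name Bowtie2, Picard, MACS2 and bedtools among the tools of the series, and the build mm9. For the calling threshold, the depth and any pooling of reads, a statement was not given in the sources used here.

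Overlap was counted in bases on intervals with a start counted from 0, and positions are printed 1-based. Gaps are the bases between 2 peaks. Comparison peaks were weighted to the exact widths of the 460 regions. Distances up to 10 kb and 50 kb and windows of 1 Mb were used. Shares have exact 95% Clopper-Pearson intervals. Regions named are the 10 widest, up to 3 in each of the 5 windows with the most regions (a tie was settled by position), and the 3 nearest to and the 3 farthest from a control peak; others illustrate pairs, runs and stretches and were picked after their values were seen. The regions and measures were chosen with earlier results of these data known. The procedure was tested on simulated data, in which all 200 peaks removed from a copy of the gTKO list (49550 peaks) were found again. The kept peaks were moved by only a few bases and had to overlap themselves. The test therefore checks the counting of overlaps only, and not 2 lists called from different libraries. Python 3.11.15, numpy 2.4.6, pandas 2.3.3, scipy 1.17.1 and matplotlib 3.10.9 were used. Planned comparisons of genes, repeats and motifs were not run, since an mm9 reference was not used here.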

Additional observations from a re-analysis of the deposited data

How the results depend on the processing

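The number of wide gTKO-only regions was 460 and moved with the rule. It was 740 if a gTKO peak could be covered by control peaks over less than 50% of its length, 906 with a minimum of 250 bp and 103 with a minimum of 400 bp. A gap of at least 500 bp (411) and all sequences (474) stayed within 1.5 times. The 5 differences from comparison peaks kept their direction with width classes of 50 bp, without width matching, without the 13 windows of 3 or more regions and with regions at least 500 bp from a control peak. The difference in regions with a control peak within 10 kb was -17.5 percentage points and -22.7 with regions at least 500 bp from a control peak, a choice that itself removes close control peaks. The difference in regions with another wide gTKO-only region within 10 kb was 5.81 points and 1.78 when regions in the 13 windows were dropped and comparison peaks kept, a choice that removes grouped regions. Settings that need a gene start, a motif or repeat marks were not run. No paired analysis was possible because the 3 libraries of a genotype are represented by a single list. No library could be left out for that reason either. The depth behind the lists is unknown, and its effect was not tested.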

Other observations

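On sequences outside chromosomes 1 to 19 and X, 14 of 248 gTKO peaks of at least 300 bp shared no base with a control peak, which is 5.65% (95% interval 3.12 to 9.29%) against 1.67% on the chromosomes. Contigs assigned to chromosome 1 without a position held 7 of them among 85 peaks (8.24%), those assigned to chromosome 8 held 6 among 112 (5.36%) and those assigned to chromosome 4 held 1 among 7. The widest measured 565 bp and lay on a chromosome 8 contig. On the sequence that gathers contigs of no known chromosome, 0 of 12 gTKO peaks of at least 300 bp were gTKO-only.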
